A study of Rattus norvegicus with 8 samples.

Results

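A set of 10 genes that identify GABA-releasing interneurons was followed in medial prefrontal cortex of rats at the extremes of motor impulsivity: Gad1, Gad2, Slc32a1, Pvalb, Sst, Vip, Npy, Reln, Dlx1 and Lhx6. They were taken by gene symbol, from a list chosen with earlier results of these data known. All 10 are among the 17168 genes of the deposited tables and among the 11631 genes tested. RNA was sequenced from homogenate of this region from male Sprague-Dawley rats, in 4 libraries of high (HI) and 4 of low (LI) motor impulsivity. The score was the number of premature responses in a 1-choice serial reaction time task, HI rats lying in its highest quartile and LI rats in its lowest. Both groups are of the same strain and sex, and the labels name no treatment and no age. The labels give 4 to 6 rats per phenotype. Nothing in them ties each library to its own animal, so the p-values measure the spread between these libraries.

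Cortical interneurons restrain excitatory pyramidal cells by releasing GABA. The enzymes GAD67 (Gad1) and GAD65 (Gad2) make GABA from glutamate, and the vesicular transporter VGAT (Slc32a1) loads it into synaptic vesicles. During development the homeodomain factors Dlx1 and Lhx6 set the interneuron fate, Lhx6 in the cells born in the medial ganglionic eminence. Mature interneurons fall into subclasses that carry the calcium-binding protein parvalbumin (Pvalb), somatostatin (Sst), vasoactive intestinal peptide (Vip) or reelin (Reln), with neuropeptide Y (Npy) made by part of the Sst and Reln cells.

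The total count per library lay between 7354416 and 9476656, and the share taken by ribosomal RNA (Rn45s and Rn28s) between 0.406% and 25.5%, lowest in HI4 and LI3 and highest in HI2. The members held between 163 counts (Pvalb in HI2) and 4121 counts (Gad1 in LI4). Excitatory cortical neuron markers were abundant, Slc17a7 at 865 to 1571 CPM (read counts relative to the TMM-scaled library size). LI2 stood apart in striatal and oligodendrocyte markers. It was the highest library for all 9 striatal and all 5 oligodendrocyte genes measured, with 39.0 CPM of Adora2a against 2.26 to 5.34 in the other 7 libraries and 3514 CPM of Mbp against 901 to 1796. Microglia markers were lower in HI than in LI in sum, 163 to 183 CPM against 189 to 209, with 2 of 5 genes (Aif1 and Tmem119, named after their values were seen) not overlapping, where 1.14% of all genes had HI below LI without overlap, and none past the threshold. Values of single libraries are given below in the order of replicates 1 to 4.

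The promoters of Gad1, Gad2, Dlx1 and Reln are shown here because Gad1, Dlx1 and Reln are the members with an unadjusted p under 0.05 between the groups, and Gad2 is the partner against which Gad1 is read. Each is the RefSeq window of 250 bases before to 50 after the start, 5′ to 3′ on the gene's strand, in the build GRCr8: Gad1 at chr3:75777202-75777501 (+ strand), Gad2 at chr17:89671468-89671767 (+ strand), Dlx1 at chr3:76763614-76763913 (+ strand) and Reln at chr4:13628318-13628617 (+ strand). Capitals mark GGGCGG, the core of the GC box, and CCAAT, each on either strand.
Gad1: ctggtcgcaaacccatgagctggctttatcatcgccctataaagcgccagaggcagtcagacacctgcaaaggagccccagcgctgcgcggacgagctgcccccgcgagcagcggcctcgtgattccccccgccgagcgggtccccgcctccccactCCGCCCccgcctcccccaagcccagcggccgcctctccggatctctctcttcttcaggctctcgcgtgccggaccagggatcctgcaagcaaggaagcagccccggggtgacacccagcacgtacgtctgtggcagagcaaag
Gad2: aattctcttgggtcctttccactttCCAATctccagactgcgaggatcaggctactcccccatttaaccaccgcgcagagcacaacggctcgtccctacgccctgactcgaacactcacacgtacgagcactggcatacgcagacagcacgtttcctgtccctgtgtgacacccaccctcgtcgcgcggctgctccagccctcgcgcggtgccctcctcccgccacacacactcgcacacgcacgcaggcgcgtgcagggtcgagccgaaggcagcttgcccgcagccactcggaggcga
Dlx1: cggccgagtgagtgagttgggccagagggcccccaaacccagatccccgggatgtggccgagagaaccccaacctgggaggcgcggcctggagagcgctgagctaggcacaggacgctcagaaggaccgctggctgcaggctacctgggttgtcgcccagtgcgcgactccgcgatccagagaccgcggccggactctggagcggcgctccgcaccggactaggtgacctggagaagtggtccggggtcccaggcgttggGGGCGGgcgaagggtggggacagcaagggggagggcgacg
Reln: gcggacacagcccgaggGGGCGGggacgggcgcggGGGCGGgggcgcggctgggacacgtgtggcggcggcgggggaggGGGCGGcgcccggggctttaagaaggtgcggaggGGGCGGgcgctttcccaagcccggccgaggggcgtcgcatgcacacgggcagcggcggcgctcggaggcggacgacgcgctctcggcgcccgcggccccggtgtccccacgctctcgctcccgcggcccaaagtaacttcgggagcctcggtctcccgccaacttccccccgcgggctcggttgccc

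Reln holds 4 copies of GGGCGG, Gad1 and Dlx1 hold 1 each, and Gad2 holds none but has 1 CCAAT. Of the 33469 windows in the table, 33.1% hold GGGCGG and 37.5% hold CCAAT on either strand; among the members 7 of 10 and 3 of 10 do. The letters TAATT, a core that homeodomain proteins such as Dlx1 and Lhx6 can bind, were found in 28.5% of all windows and among the members only in that of Sst. CpG dinucleotides numbered 47 in Reln, 29 in Gad2, 27 in Dlx1 and 26 in Gad1, against 4 in Vip and a median of 7 over all windows. All 10 members had a window in the table, and these matches describe letters only.

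Expressed per transcript length as TPM, somatostatin was by far the most abundant member. Sst averaged 777 ± 186 TPM (SD, n = 8 libraries), followed by Pvalb at 272 ± 73.7, Npy at 242 ± 62.7 and Gad1 at 179 ± 49.0. Gad2 stood at 91.0 ± 12.9, Slc32a1 at 82.4 ± 22.1, Vip at 53.4 ± 10.1, Reln at 35.4 ± 6.37, Dlx1 at 33.3 ± 10.7 and Lhx6 at 21.2 ± 4.39. A total of 3 steps of this order held in all 8 libraries, namely Sst above Pvalb, Gad1 above Gad2 and Vip above Reln. Pvalb lay above Npy in 6 libraries, Npy above Gad1 in 6, Gad2 above Slc32a1 in 6, Slc32a1 above Vip in 7 and Dlx1 above Lhx6 in 7. Reln and Dlx1 changed places, with Reln above Dlx1 in 4 of 8. These 3 necessarily also hold when any library is left out, and leaving out LI4 added no further step.

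**Figure D1:**
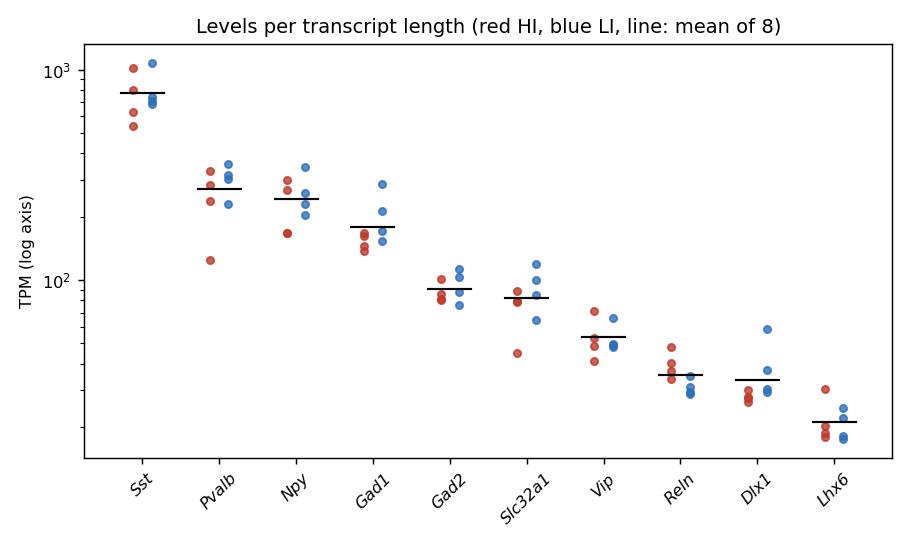
TPM on a log axis for the 10 members, ordered by their mean over the 8 libraries (black line), with red points for HI and blue points for LI libraries. Sst lies between 540 and 1078 TPM, above every other member in every library, and Lhx6 is the lowest on average at 21.2 TPM.

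None of the 10 members passed the threshold between HI and LI. The comparison asks whether transcripts differ between impulsive and non-impulsive rats; at an adjusted p of 0.1, edgeR's quasi-likelihood test called 0 members and 0 of all genes tested (0.0%), and every member had an adjusted p of 1.00. At an unadjusted p under 0.05, 1 member was higher in HI (Reln), where 3.07% of all genes were, and 2 were lower (Gad1 and Dlx1), where 1.09% were. DESeq2 called 0 members and 38 genes (0.327%), and Fisher's exact test on summed counts, the test the series' design text names, called 8 members and 56.7% of all genes. Fisher's test takes no account of the spread between libraries. The HI and LI ranges overlapped in all 10 members, while 3.46% of all genes had ranges that did not overlap, 2.31% with HI above and 1.14% with HI below. The median log2 fold change, HI minus LI, was -0.15 over the members, 3 of them positive and 7 negative, and -0.01 over all genes tested.

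**Figure D2:**
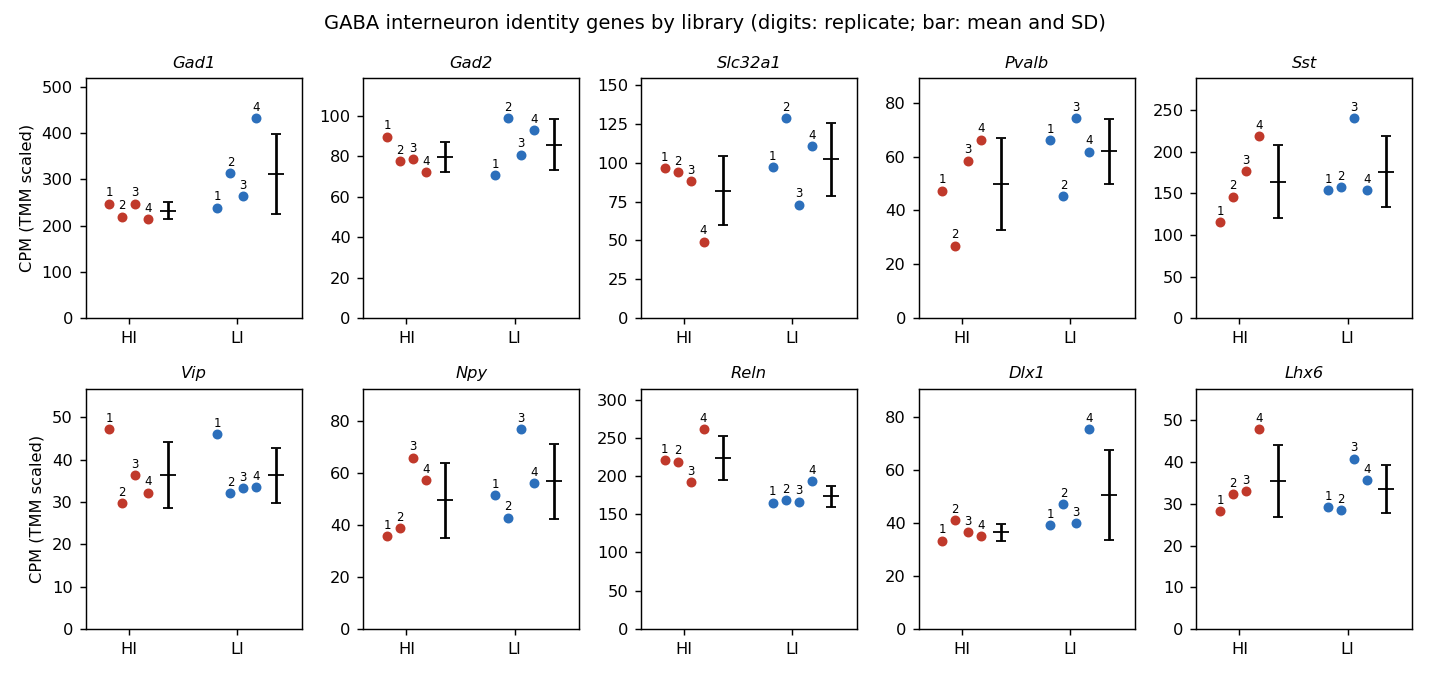
CPM of each member in the 4 HI (red) and 4 LI (blue) libraries, with the replicate number beside each point and the mean and SD as a bar; every axis starts at 0. Gad1 and Dlx1 have their highest value in LI4 (432 and 75.4 CPM), and for Reln the HI libraries lie at 192 to 261 CPM and the LI libraries at 165 to 194.

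Of the GABA-making and GABA-loading genes, Gad1 had the largest log2 fold change with all 8 libraries, though not without LI4. Gad1 stood at 248, 220, 248 and 215 CPM across HI and at 239, 313, 263 and 432 CPM across LI. The HI libraries were tightly grouped, LI1 lay among them, and LI4 lay above all others. The HI mean was 232 ± 17.7 CPM and the LI mean 312 ± 85.6 CPM (SD over 4 libraries per group). The log2 fold change was thus -0.42 ± 0.18 (SE). Without LI4 it was -0.23 ± 0.13, and without LI2 and LI4, an analysis chosen after seeing the data, -0.11 ± 0.14. It was larger in size without LI1 (-0.54 ± 0.17) and without LI3 (-0.50 ± 0.19). In homogenate, fewer cells of a type and less RNA per cell cannot be told apart, here or in the values below.

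Gad2 differed less. It stood at 89.7, 77.5, 78.8 and 72.4 CPM across HI and at 70.6, 98.8, 80.9 and 92.9 CPM across LI, so that the lowest and the highest value were both in LI. The log2 fold change was -0.11 ± 0.13, -0.03 ± 0.14 without LI2 and -0.20 ± 0.13 without LI1. Slc32a1 stood at 96.5, 94.1, 88.0 and 49.2 CPM across HI and at 96.9, 128, 73.0 and 111 CPM across LI. It was lowest in HI4 and highest in LI2. The log2 fold change of -0.32 ± 0.23 was -0.14 ± 0.17 without HI4, -0.19 ± 0.24 without LI2 and -0.28 ± 0.26 without LI4. Without LI3 it was larger in size, at -0.45 ± 0.22. With the share of ribosomal RNA as covariate it was -0.45 ± 0.23, and that of Gad1 -0.39 ± 0.19. Striatal projection neurons also make GABA with these 3 genes; the summed CPM of the 9 striatal markers was 933 in LI2 and 379 to 418 in the other libraries, and LI2 had the highest value of Gad2 and of Slc32a1. Drd2, the dopamine receptor of a class of these neurons, stood at 32.6 CPM in LI2 and 4.14 to 12.8 elsewhere, Drd1 at 24.6 against 7.08 to 18.5, and the signalling protein gene Ppp1r1b at 367 against 101 to 138. Their part in these values was not tested.

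The ratio of the transcripts of the 2 GABA-making enzymes separated the groups, but not past the adjusted threshold. With 4 libraries per group and 4 ratios, 1 ratio alone could not pass it. Within a library the ratio of Gad1 to Gad2 in TPM was 1.65, 1.70, 1.88 and 1.77 across HI and 2.03, 1.90, 1.95 and 2.78 across LI. Every LI library lay above every HI library, with HI3 and LI2 next to each other. How often ratios of other gene pairs separate the groups was not counted. On the log2 scale the HI mean was 0.81 ± 0.08 and the LI mean 1.10 ± 0.26 (SD over 4 libraries per group), a difference of -0.29 with a two-sided exact permutation p of 0.0286, the smallest that 70 assignments allow, and an adjusted p of 0.114 over the 4 ratios tested. Without LI4 the difference was -0.16 and the groups still did not overlap (exact permutation p = 0.0571, adjusted p = 0.229).

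The other 3 ratios overlapped between the groups. Gad1 relative to Slc17a7, the vesicular glutamate transporter of excitatory neurons, had an HI mean of 0.112 ± 0.0284 and an LI mean of 0.160 ± 0.0514 (exact permutation p = 0.171, adjusted p = 0.343). It was lowest in HI2 at 0.0853 and highest in LI4 at 0.227. Pvalb relative to Sst had an HI mean of 0.327 ± 0.0998 and an LI mean of 0.380 ± 0.0737 (exact permutation p = 0.514, adjusted p = 0.686), and Vip relative to Sst was 0.0777 ± 0.0371 and 0.0692 ± 0.0213 (exact permutation p = 0.83, adjusted p = 0.83). The balance of these subclass markers thus varied more within the groups than between them.

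**Figure D3:**
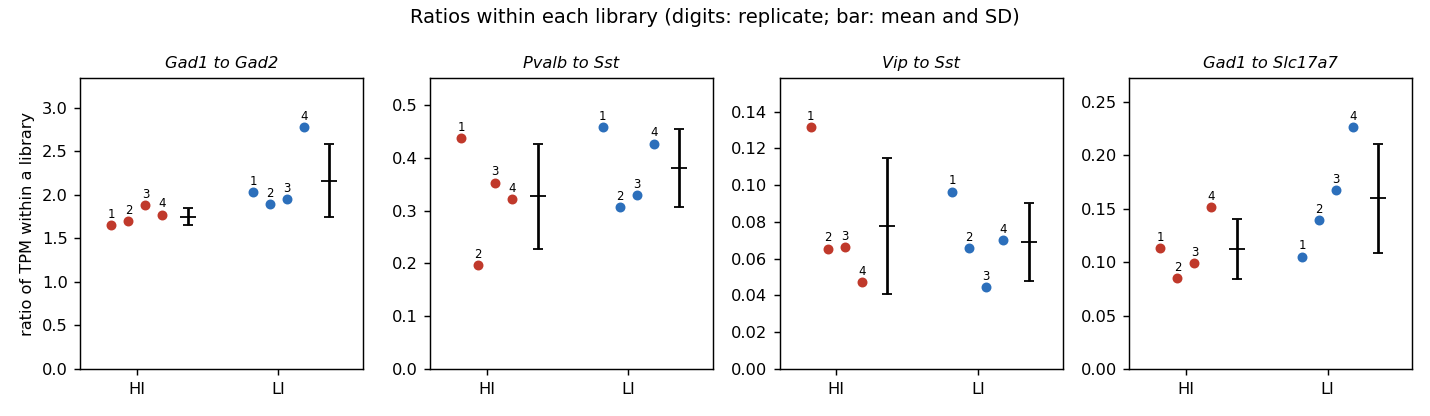
Ratio of TPM of 2 genes within each library for Gad1 to Gad2, Pvalb to Sst, Vip to Sst and Gad1 to Slc17a7, HI in red and LI in blue, replicate numbers beside the points, bars for mean and SD. For Gad1 to Gad2 the HI libraries lie at 1.65 to 1.88 and the LI libraries at 1.90 to 2.78; in the other 3 panels the groups overlap.

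Of the developmental factors, Dlx1 followed the pattern of Gad1 and Lhx6 did not. Dlx1 stood at 33.3, 41.0, 36.4 and 35.0 CPM across HI and at 39.2, 47.1, 39.9 and 75.4 CPM across LI. LI4 was far above the rest, at 1.92 times the median of the other 7 libraries, and HI2 lay above LI1 and LI3. The log2 fold change was -0.47 ± 0.21, -0.21 ± 0.14 without LI4 and -0.12 ± 0.16 without LI2 and LI4. Without LI1 it was larger in size, at -0.58 ± 0.22. Lhx6 stood at 28.3, 32.2, 33.0 and 47.9 CPM across HI and at 29.1, 28.5, 40.8 and 35.6 CPM across LI, with the highest values in HI4 and LI3, the libraries with the least ribosomal RNA. Its log2 fold change was 0.08 ± 0.19 and turned to -0.10 ± 0.15 without HI4. Lhx6 was the only member with deposited counts that were not whole, which was so in all 8 libraries. The reason was not tested.

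Some other interneuron genes were high in LI4 as well, and some were low. Among the 14 interneuron transcription factors tested, LI4 was the highest library for 5, where it was the highest for 7.13% of all genes. Dlx2 stood at 15.2 CPM in LI4 and 4.66 to 8.55 in the other libraries, and Sp9, a zinc finger factor of the ganglionic eminences, at 16.7 against 2.66 to 9.46. Named after their values were seen, Dlx5 stood at 21.7 CPM in LI4 against 5.83 to 10.5, and Sp8 at 8.90 against 0.932 to 5.29. Calb2 (calretinin) at 29.5 against 9.13 to 17.4 and Crh (corticotropin-releasing hormone) at 9.53 against 3.15 to 5.42 showed the same. Both were likewise picked after their values were seen. Satb1 and Pnoc, also named after their values were seen, were instead lowest in LI4, at 96.0 and 5.03 CPM. Of the 53 members and further interneuron genes tested, 9 were at least 1.5 times the median of the other libraries in LI4, against 3.48% of all genes, a fold chosen after seeing the data.

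A list of 10 genes of the newborn and olfactory bulb interneuron lineage, drawn up after these LI4 values were seen, was read in the same way. Of the 8 tested, LI4 was at least 1.5 times the median of the others in 6, among them Dcx, a microtubule protein of migrating neurons, at 129 CPM against 56.9 to 87.4. The summed CPM of the 8 was 626 in LI4 and 331 to 519 in the other libraries, with no member at 0 in any library. Their part in the LI4 values of Gad1 and Dlx1 was not tested. The other 8 members, Gad2 and Slc32a1 among them, lay within the range of the other libraries in LI4.

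**Figure D4:**
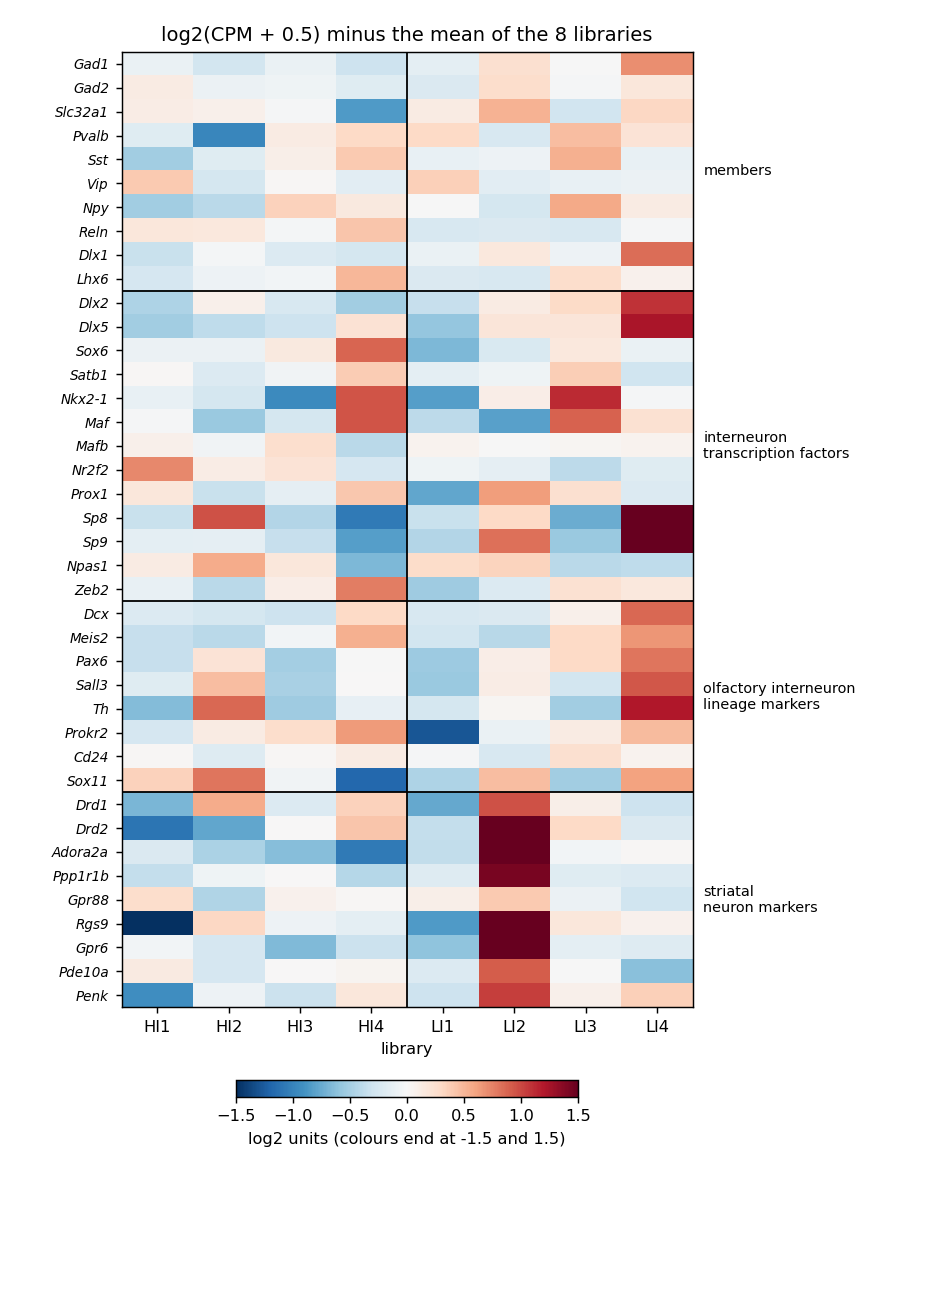
log2(CPM + 0.5) of each gene minus its mean over the 8 libraries, with libraries as columns (HI left, LI right of the line) and genes of 4 lists as blocks; colours end at -1.5 and 1.5. LI4 is red for Gad1, Dlx1, Dlx2, Dlx5, Sp8 and Sp9, and LI2 is red for the striatal markers.

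Among the subclass markers of the member list, reelin was the 1 gene at an unadjusted p under 0.05, with higher values in HI. Reln, a large extracellular glycoprotein that in adult cortex is made by interneurons, stood at 221, 219, 192 and 261 CPM across HI and at 165, 168, 166 and 194 CPM across LI. A single pair of libraries overlapped, LI4 lying just above HI3. The HI mean was 223 ± 28.7 CPM and the LI mean 173 ± 13.6 CPM (SD over 4 libraries per group), which gave 0.36 ± 0.12 as log2 fold change (edgeR's quasi-likelihood test, unadjusted p = 0.0119, adjusted p = 1.00). Without LI4 it was 0.42 ± 0.13 and without HI4 0.28 ± 0.11. Reln has the longest transcript of the members, 11462 bases, and long transcripts were relatively more abundant in HI4, with a slope of 0.132 log2 units per doubling of length against -0.084 to 0.009 in the other libraries. With each library corrected for its slope, the difference was 0.21 ± 0.10 (limma, unadjusted p = 0.0661).

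Pvalb stood at 47.4, 26.9, 58.5 and 66.3 CPM across HI and at 66.2, 45.4, 74.1 and 61.8 CPM across LI. HI2, the library with the most ribosomal RNA, had the lowest value and LI3 the highest. The log2 fold change of -0.31 ± 0.26 was -0.11 ± 0.20 without HI2, -0.09 ± 0.14 with the share of ribosomal RNA as covariate, and -0.48 ± 0.25 without HI4.

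Sst stood at 115, 146, 177 and 219 CPM across HI and at 154, 157, 240 and 154 CPM across LI, a log2 fold change of -0.10 ± 0.22. Npy stood at 35.9, 38.8, 66.0 and 57.4 CPM across HI and at 51.4, 42.9, 77.0 and 56.2 CPM across LI, a log2 fold change of -0.20 ± 0.23 (-0.02 ± 0.22 without LI3 and -0.37 ± 0.24 without HI3). In both peptides LI3 was the highest library and HI1 the lowest. Vip stood at 47.3, 29.8, 36.4 and 32.2 CPM across HI and at 46.1, 32.2, 33.3 and 33.6 CPM across LI. Its group means were 36.4 ± 7.73 and 36.3 ± 6.57 CPM (SD over 4 libraries per group), with a log2 fold change of 0.01 ± 0.18, and HI1 and LI1 were the highest libraries.

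**Figure D5:**
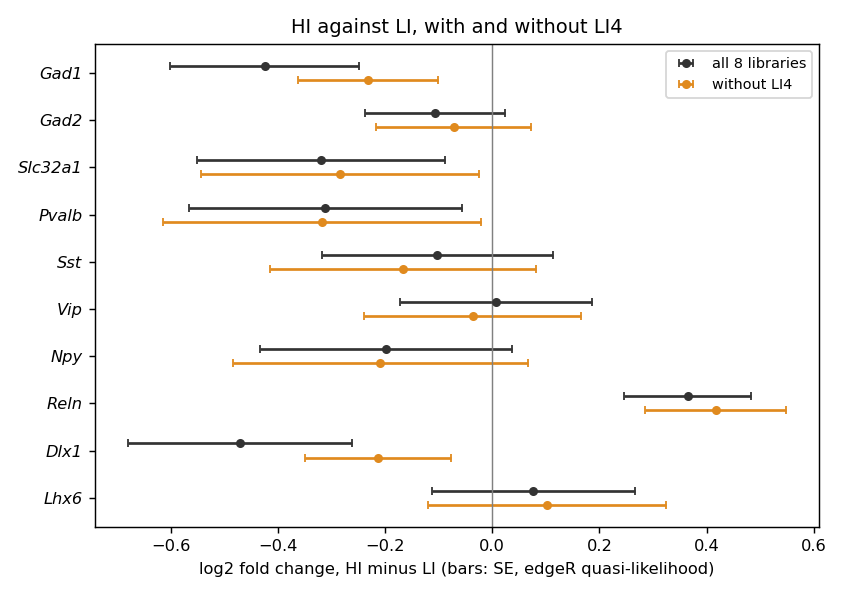
log2 fold change of each member, HI minus LI, with its SE, from all 8 libraries (dark) and without LI4 (orange). Without LI4, Gad1 goes from -0.42 to -0.23 and Dlx1 from -0.47 to -0.21, while Reln goes from 0.36 to 0.42.

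Members varied together across the 8 libraries in some pairs. Of the 5 pairs examined in log2 CPM, Sst and Npy were the closest (Pearson r = 0.85, exact permutation p = 0.00821, adjusted p = 0.0410; Spearman rho = 0.90, p = 0.00456, adjusted p = 0.0228), and r was 0.81 without HI4 and LI3, the libraries farthest from the median of Sst. Gad1 and Gad2 had r = 0.73 (exact permutation p = 0.0269, adjusted p = 0.0673) and rho = 0.83 (p = 0.0154, adjusted p = 0.0384), but r was 0.52 without LI2 and LI4. Gad1 with Slc32a1 (r = 0.58, exact permutation p = 0.152; rho = 0.57, p = 0.151; adjusted p = 0.190 and 0.189) and Pvalb with Sst (r = 0.56, exact permutation p = 0.149; rho = 0.67, p = 0.0831; adjusted p = 0.190 and 0.138) did not pass. For Gad1 with Slc32a1 r was 0.38 without LI2 and LI4, and for Pvalb with Sst it was 0.86 without HI2 and LI2. Dlx1 and Lhx6 had r = -0.02 (exact permutation p = 0.967, adjusted p = 0.967) and rho = 0.07 (p = 0.882, adjusted p = 0.882), with r = -0.66 without HI1 and LI4. Both genes of a pair are read in the same libraries, and so share each library's depth and composition. HI4 and LI3, high in Sst, are also the libraries with the least ribosomal RNA.

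The genes whose pattern over the 8 libraries was most like the mean of the members were Vps72 (r = 0.94), Ppp1cc (0.94), Slc43a3 (0.94), Steap2 (0.93) and Ube2j2 (0.93). Those r values describe likeness to the mean centred log2 CPM of the 10 members and were picked as the highest of all genes tested. The members themselves had r between -0.35 (Reln) and 0.75 (Gad1) with that mean, so they did not move as 1 block.

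Further interneuron genes, in 4 lists, were split evenly in direction. Of 43 tested, 22 had higher and 21 lower values in HI. edgeR's quasi-likelihood test called 0 of them. DESeq2 called 1 of the 43 (Erbb4), where it called 0.327% of all genes tested. It gave an adjusted p for 24 of the 43, and both shares count genes without one. The 5 genes of GABA transport and breakdown had a median log2 fold change of -0.01, the 14 transcription factors -0.02, the 14 markers of Pvalb and Sst type cells 0.10 and the 10 markers of Vip and Reln type cells -0.02. The median of the transcription factors was -0.20 without HI4 and 0.07 without HI3, and that of the Pvalb and Sst type markers was -0.02 without LI2 and LI4. Dlx2 differed by -0.71 ± 0.32 and Sp9 by -1.07 ± 0.50, both with LI4 as the highest library.

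Erbb4, a neuregulin receptor carried by cortical interneurons, was listed here with the markers of Pvalb and Sst type cells. It was the 1 gene of these 43 in which the groups did not overlap, where 3.46% of all genes did not. It stood at 37.6, 31.9, 29.7 and 49.6 CPM across HI and at 17.9, 23.9, 25.1 and 22.6 CPM across LI, a log2 fold change of 0.74 ± 0.19 (edgeR's quasi-likelihood test, adjusted p = 1.00). DESeq2 gave it an adjusted p of 0.0981, just inside the threshold. Nos1, neuronal nitric oxide synthase, stood at 49.2 to 74.2 CPM in HI and 26.2 to 53.5 in LI (0.46 ± 0.24). Among Vip and Reln type markers, Kit, a receptor tyrosine kinase, differed by 0.26 ± 0.15 and Lamp5, a lysosome-associated membrane protein, by -0.23 ± 0.16, with overlapping groups.

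Slc6a13, the GABA transporter GAT2, had the largest fold in the transport list. It stood at 16.4, 6.28, 5.31 and 2.53 CPM across HI and at 1.15, 3.66, 1.53 and 2.51 CPM across LI, a log2 fold change of 1.80 ± 0.57 (adjusted p = 1.00). The summed CPM of 6 meningeal fibroblast markers, a list added after seeing the data, was 933 in HI1, 80.4 to 232 in the other HI libraries and 34.4 to 216 in LI, and Slc6a13 is known from meninges as well. Their part in the Slc6a13 values was not tested. Aldh5a1, which breaks down GABA's product succinic semialdehyde, differed by -0.06 ± 0.10.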

How the data were processed

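The deposited tables, 1 per library, give an expected count, TPM and FPKM per gene; FPKM was not used. Per the file headers, expected counts are the authors' estimated reads per gene and need not be whole. The TPM values were scaled by the authors over all listed genes, ribosomal RNA included, and served for levels between genes and for ratios. The submitters' processing notes name Bowtie2 2.1.0; quantifier, build, annotation and strand setting were not given in the sources used here.

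Counts were rounded, scaled by TMM and filtered with filterByExpr (minimum count 10, minimum total 15) in edgeR 4.0.16 under R 4.3.3. The quasi-likelihood test of edgeR set HI against LI over 11631 genes, with Benjamini-Hochberg adjustment and a threshold of 0.1, the alpha of the design text. The SE is the absolute log2 fold change over the square root of F. log2 CPM used a prior count of 2. Ratios and pairs of genes had two-sided exact permutation tests. Alternatives used DESeq2 1.42.0, limma 3.58.1 (log2 TPM with pseudocounts of 0.1, 0.5 and 1, and length-corrected log2 CPM), Fisher's exact test, other filters and scalings, covariates and left-out libraries. edgeR's quasi-likelihood test and limma were tried on simulated counts, with changes larger than that of any member. The permutation test of ratios was tried on random values. DESeq2 and Fisher's exact test were not tried in this way.

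The members and gene lists were chosen with earlier results of these data known. Named genes were the members, the 2 smallest p of each other interneuron list, 4 striatal genes, the first gene of other marker lists and the 5 genes most like the members' mean; others are marked as named after seeing values. Dlx6 and Ndnf of these lists were not analysed here. A transcription factor of these lists, included in its counts, is not reported here by name. Libraries of a group were not within sampling noise of each other. P-values over 4 ratios and 5 pairs were adjusted within each family. Precision is limited by 4 libraries per group and by counts as low as 163 for a member.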

Additional observations from a re-analysis of the deposited data

Results flagged for a closer look

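In 8 of 52 groups of 4 values checked, 1 library lay far from the others, judged by its gap to the nearest of them relative to the range of the group; chance gives about 1 in 20. Of the members, Sst was far above the other LI libraries in LI3 (240 CPM), Vip in LI1 (46.1 CPM) and Reln in LI4 (194 CPM). The ratio of Gad1 to Gad2 was far above the other LI libraries in LI4, at 2.78. Outside the members, LI2 was far above in Adora2a (39.0 CPM) and Ppp1r1b (367 CPM), and HI4 in Aldh5a1 (220 CPM) and HI1 in Kit (43.9 CPM) were far above the other HI libraries.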

How the results depend on the processing

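edgeR called 0 genes and 0 members in every fit, those leaving out a library included, while DESeq2 called 38 genes and Fisher's exact test 6596 genes and 8 members. The number of members at an unadjusted p under 0.05, 3 with all libraries, was 1 (Reln) with the ribosomal RNA covariate, with the 3 limma fits on log2 TPM and without LI2 and LI4, 1 (Gad1) with the length correction, 2 (Pvalb and Reln) with the replicate block, 8 with Fisher's test, and 1 to 3 without single libraries; it was 1, Reln, without HI1, HI3, HI4, LI2 or LI4. Which member had the larger fold also varied. That of Pvalb was larger in size than that of Reln without HI4 (-0.48 against 0.28), without LI2 (-0.43 against 0.35) and with the length correction (-0.24 against 0.21). The same held without LI2 and LI4 (-0.49 against 0.43), with the replicate block (-0.362 against 0.359) and in the 3 limma fits on log2 TPM. The median over the members lay between -0.25 and -0.07 in all 21 alternatives. Gad1, Slc32a1, Pvalb, Npy, Dlx1 (negative) and Reln (positive) kept their sign in all 20 alternatives that gave a fold change. Values near 0 changed sign. Vip was -0.0013 with no low-count filter, -0.0011 with the replicate block, -0.0073, -0.0075 and -0.0071 on log2 TPM, -0.12 without LI2 and LI4, and -0.15 to 0.14 without single libraries. Sst was 0.0024 with the covariate, 0.012 with the length correction and -0.27 to 0.084 without single libraries. Gad2 was 0.073 without LI2 and LI4, and Lhx6 -0.10 to 0.19 without single libraries. The log2 ratio of Vip to Sst differed by -0.18 to 0.32 without single libraries. For Dlx1 with Lhx6, r was 0.072 on deviations from group means, 0.0087 on log2 TPM and -0.28 to 0.30 without single libraries. The pair Gad1 with Gad2 passed 0.1 with all libraries but not without HI1, HI3, HI4 or LI3, and Sst with Npy not without HI1 or LI3. The cause was not tested.

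Whether the replicate numbers pair the libraries was not settled. Deviations from the group means correlated at 0.215, 0.536, -0.053 and 0.059 for numbers 1 to 4. Of the 4 HI libraries, 1 correlated best with its own number. The SE of Pvalb went from 0.26 to 0.15 with replicate as block, and that of Gad2 from 0.13 to 0.14. With the replicate block edgeR also called 0 genes, and the log2 ratio of Gad1 to Gad2 differed by -0.29 (exact permutation p = 0.125, the smallest that 4 pairs allow).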
